A study of Mus musculus with 12 samples.

Results

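The genes described here are 7 that encode subunits of the GABA-A receptor: Gabra2, Gabra3, Gabra4 and Gabra5 of the alpha class, Gabrb1 and Gabrb2 of the beta class, and Gabrd of the delta class. They were taken from a list by symbol, and all 7 were found among the 55487 gene rows of the cortex table and of the hippocampus table. RNA sequencing had measured cerebral cortex and hippocampus of C57BL/6 mice. The 12 libraries form 4 groups of 3: cortex labelled mTert KO (G1) and cortex labelled mTert WT, and hippocampus labelled mTert KO (G1) and hippocampus labelled mTert WT. They are called knockout and wild type below. The names of the tables add the word Homo to the knockout, and neither it nor G1 is explained in the labels. Tert encodes the catalytic subunit of telomerase. Age, sex and the design of the Tert allele are not stated in the labels. Nothing given says that replicate libraries stem from different mice, so the p-values below reflect spread among libraries that may be partly technical.

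GABA-A receptors are chloride channels opened by the inhibitory transmitter GABA, and each channel is a ring of subunits drawn from several classes. The beta subunits line the transmitter site together with the alpha subunits, and the alpha subunit sets much of a receptor's place in the cell and its drug response. In the forebrain, Gabra5 is known for its high level in the hippocampus, and Gabra4 and Gabrd for receptors outside the synapse that carry a steady current.

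Coordinates are those of the GRCm38 annotation. Gabra2, Gabra4 and Gabrb1 lie close together on chromosome 5. Gabra2 spans chr5:70957597-71095849 and Gabra4 spans chr5:71569749-71658308, both on the minus strand, and Gabrb1 spans chr5:71658113-72149037 on the plus strand. Gabra3 lies at chrX:72432681-72656848 on the minus strand, Gabra5 at chr7:57407672-57510059 on the minus strand, Gabrb2 at chr11:42419757-42629028 on the plus strand and Gabrd at chr4:155384980-155398112 on the minus strand. Merged over all annotated exons, their lengths are 7640 bases for Gabra2, 3924 for Gabra3, 6083 for Gabra4, 2974 for Gabra5, 13838 for Gabrb1, 6360 for Gabrb2 and 2875 for Gabrd. Gabra4 and Gabrb1 overlap at their 5′ ends and share 46 exonic bases on opposite strands. Gabra5 shares 148 exonic bases with the antisense gene Gm9962. The labels do not state whether reads were counted by strand, so reads from these stretches cannot be assigned with certainty.

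RefSeq promoter windows of build GRCm38.p6, each with 250 bases before an annotated start and 50 from it on, were matched by symbol for 6 of the 7 genes, with 10 windows in all. The windows shown belong to Gabrb2, which had the largest change of the 7 in the hippocampus, and to Gabra4 and Gabrb1. The last 2 overlap at their 5′ ends and moved in opposite directions in the hippocampus. Of 3 windows of Gabrb2 and 2 of Gabrb1, the one with the lowest start coordinate is shown. The Gabrb2 window is chr11:42420190-42420489 on the plus strand, the Gabra4 window chr5:71658259-71658558 on the minus strand, and the Gabrb1 window chr5:71657671-71657970 on the plus strand. The whole Gabrb1 window lies within the span given above for Gabra4, and ahead of the start given there for Gabrb1. Each is written 5′ to 3′, and capitals mark the 50 bases from the annotated start on.
Gabrb2: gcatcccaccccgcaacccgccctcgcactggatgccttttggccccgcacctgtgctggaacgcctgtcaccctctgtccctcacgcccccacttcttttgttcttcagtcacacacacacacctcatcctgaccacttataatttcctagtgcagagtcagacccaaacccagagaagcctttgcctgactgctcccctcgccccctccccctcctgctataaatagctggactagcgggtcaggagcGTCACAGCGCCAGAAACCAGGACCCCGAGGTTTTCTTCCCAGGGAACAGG
Gabra4: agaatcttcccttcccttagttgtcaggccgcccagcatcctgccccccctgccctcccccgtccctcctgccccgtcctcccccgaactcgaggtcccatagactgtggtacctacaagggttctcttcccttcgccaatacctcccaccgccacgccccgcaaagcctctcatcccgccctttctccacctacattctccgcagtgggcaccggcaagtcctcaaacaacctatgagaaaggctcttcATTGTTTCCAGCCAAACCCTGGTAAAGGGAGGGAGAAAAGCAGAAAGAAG
Gabrb1: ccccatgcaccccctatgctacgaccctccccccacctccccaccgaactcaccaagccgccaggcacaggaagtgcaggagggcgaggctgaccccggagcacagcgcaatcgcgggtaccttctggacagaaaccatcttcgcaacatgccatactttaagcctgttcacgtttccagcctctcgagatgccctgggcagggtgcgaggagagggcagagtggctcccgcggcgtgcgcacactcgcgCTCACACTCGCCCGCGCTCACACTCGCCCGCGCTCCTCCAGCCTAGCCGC
These windows hold 59.0% G and C for Gabrb2, 58.7% for Gabra4 and 66.0% for Gabrb1, against a median of 52.7% over all mouse windows. The windows of Gabrb2 not shown hold 54.7% and 41.0%, and that of Gabrb1 holds 50.3%. Across the 10 windows of the 6 genes the range was wide, with 70.0% for Gabra2 and 39.3% for the lower of the windows of Gabra3. Searched on both strands, the CREB site TGACGTCA was in 0 of the 10 windows and in 1.79% of 32851 mouse windows. The E-box CACGTG was in 0 of the 10, against 7.15% of all windows, and the Egr site GCGTGGGCG in 0 of the 10, against 0.612%. These letters are not in these windows, which says nothing about the factors.

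The targeted gene followed the labels: Tert was at 0, 0 and 0 normalized counts in knockout cortex, against 206, 105 and 241 in wild-type cortex, and at 0, 6.31 and 0 in knockout hippocampus, against 147, 184 and 128 in wild-type hippocampus. A normalized count is a read count divided by a size factor of its library, and the libraries held between 68424934 and 86639113 reads, of which the totals of cortex wild-type libraries 1 and 2 are estimates. The tables were scaled separately by tissue. Wild-type library 2 of the cortex stood apart: the median absolute log2 difference per gene was 0.254 to library 1 and 0.238 to library 3 of its group, against 0.0594 between those libraries and at most 0.138 within the other 3 groups. Cortex results are therefore given with and without it. The summed level of 8 hippocampal field and dentate markers ran from 94814 to 99959 in knockout hippocampus and from 106308 to 125459 in wild-type hippocampus, and was at most 15604 in any cortex library.

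In the hippocampus 5 of the 7 subunit genes changed with the genotype. Gabrb2 fell to 0.276 of its wild-type level and Gabrb1 to 0.689 of it, while Gabra3, Gabra4 and Gabra5 were 1.24-fold, 1.22-fold and 1.27-fold higher in the knockout. In the cortex Gabrb1 fell to 0.70 of its wild-type level and the other 6 did not pass the test. Genes were compared with limma on log2(normalized count + 1), keeping every gene whose mean reached 10 normalized counts. A gene was called where its Benjamini-Hochberg adjusted p over all genes tested was below 0.05. All 7 passed that filter in each tissue. In the hippocampus 3 of 7 were called higher and 2 lower, where 14.1% of 22337 tested genes were called higher and 15.1% lower. In the cortex 0 were called higher and 1 lower, where 1.28% of 21945 genes were called higher and 0.661% lower. Without cortex wild-type library 2, 3 were called higher and 2 lower, against 11.0% of genes higher and 10.4% lower. The difference between the tissues was tested as the hippocampus effect minus the cortex effect in 1 limma fit over all 12 libraries. For that difference 0 members were called higher and 1 lower, namely Gabrb2, against 0.963% of 21282 genes called higher and 2.05% lower. The 3 knockout and 3 wild-type libraries did not overlap for 7 of 7 genes in the hippocampus, where 45.8% of all tested genes had no overlap, and for 5 of 7 in the cortex, where 28.3% had none. In bulk tissue, fewer cells of a type and less RNA per cell cannot be told apart.

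**Figure D1:**
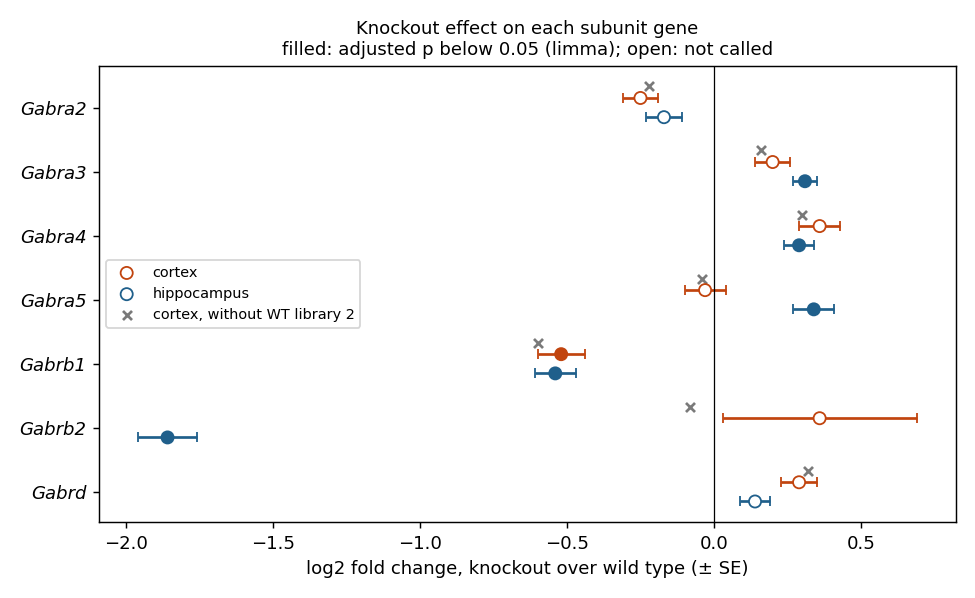
Log2 fold change of each subunit gene in the knockout over the wild type (horizontal axis, points ± SE from limma) in cortex and hippocampus. Filled points passed the adjusted threshold, crosses give the cortex value without wild-type library 2, and Gabrb2 in the hippocampus lies far to the left at -1.86.

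Gabrb2 encodes a beta subunit found in many of the brain's synaptic GABA-A receptors. In the hippocampus it had 2155, 1890.5 and 2196 normalized counts in the 3 knockout libraries, against 6549, 8600 and 7586 in the 3 wild-type libraries. Every knockout library lay far below every wild-type library. Means were 2080.4 ± 166 in knockout and 7578 ± 1025 in wild-type hippocampus (SD, n = 3 each). The log2 fold change was -1.86 ± 0.10 (SE), with an adjusted p of 3.54e-05 by limma. Of the 22337 genes tested, 634 (2.84%) had a change at least as large in either direction, while the median absolute change over all genes was 0.20. The value stayed between -1.96 and -1.76 over 18 alternatives, and all of them called it.

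In the cortex Gabrb2 showed no such drop. It had 7787, 9162 and 8377 normalized counts in knockout cortex, against 9107, 3571 and 8689 in wild-type cortex. Here the single low value belonged to wild-type library 2, the library that stood apart, and the other 5 libraries lay close together. The log2 fold change was 0.36 ± 0.33 (SE), with an adjusted p of 0.604 by limma. Without wild-type library 2 it was -0.08 ± 0.06 and the adjusted p was 0.418. The hippocampus effect minus the cortex effect was -2.22 ± 0.39 on the log2 scale (adjusted p = 0.015 by limma), and -1.78 ± 0.14 without that library (adjusted p = 7.57e-05). The knockout effect on Gabrb2 thus differed between the tissues with and without the library.

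**Figure D2:**
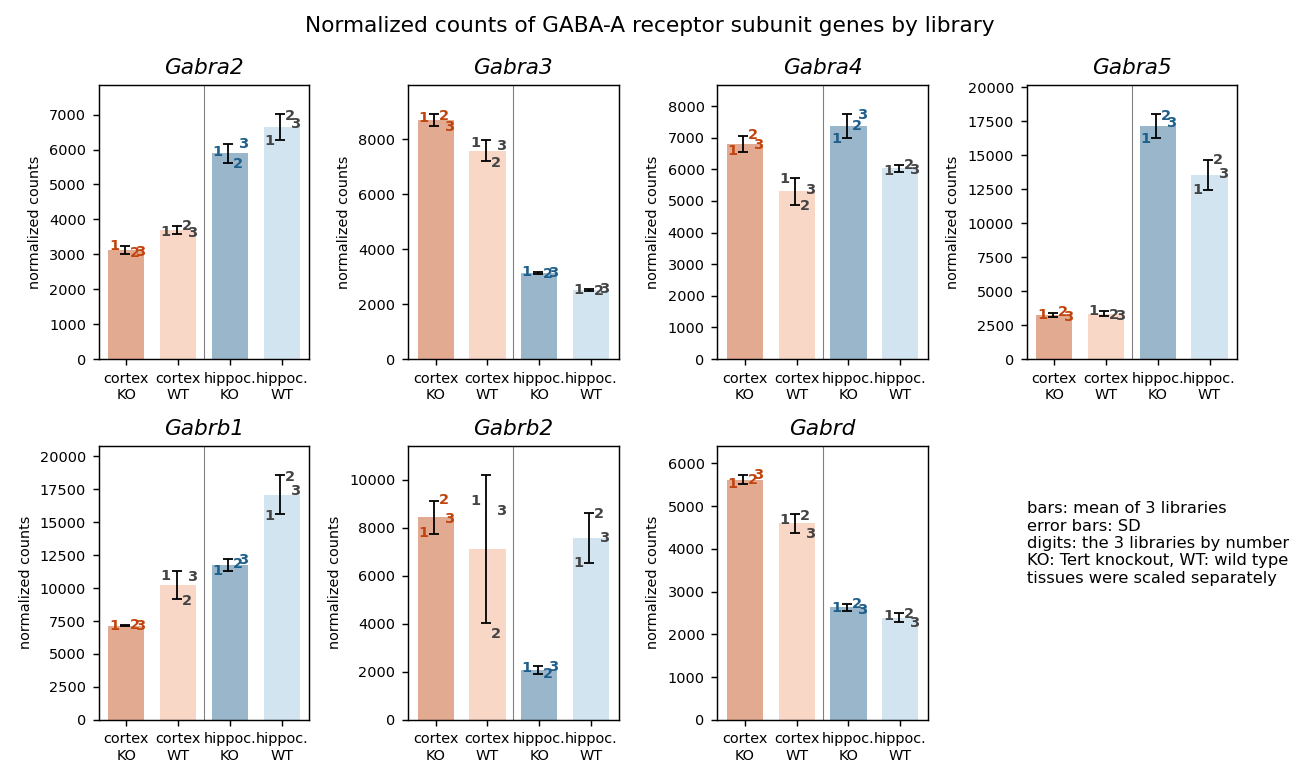
Normalized counts of the 7 subunit genes in each group (vertical axes), with bars for the mean of 3 libraries, error bars for the SD and digits for the libraries by number. Gabrb2 in knockout hippocampus lies between 1890.5 and 2196, below every wild-type hippocampus library, and the low Gabrb2 value in wild-type cortex is library 2.

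Gabrb1, the other beta subunit gene measured here, was lower in the knockout of both tissues. In the hippocampus it had 11290.0, 11835 and 12135 normalized counts in knockout libraries, against 15493, 18409 and 17414 in wild-type libraries. The groups were well apart, with log2 fold change -0.54 ± 0.07 (SE) and an adjusted p of 0.00108 by limma. In the cortex the knockout libraries had 7132, 7191 and 7101 normalized counts, against 10890.4, 9023 and 10821 in wild-type libraries. The knockout libraries were nearly equal and all below the lowest wild-type library, which was library 2. The log2 fold change was -0.52 ± 0.08 (adjusted p = 0.0376 by limma), and -0.60 ± 0.03 without wild-type library 2 (adjusted p = 5.96e-06). The cortex call held in 7 of 15 alternatives, over which the adjusted p ran up to 0.2, and was lost when any 1 of the other 5 cortex libraries was left out. Between the tissues its effect differed by -0.02 ± 0.11 and did not pass (adjusted p = 0.916). With the trend of fold change with exonic length removed, that difference was 0.34 ± 0.07 and was called (adjusted p = 0.026), which turns its direction.

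Gabrb1 is also the longest of the 7 in merged exons, and in the hippocampus the fold change moved with exonic length across protein-coding genes. The median log2 fold change was 0.10 for genes of 2 to 4 kb, 0.04 for 4 to 8 kb, -0.16 for 8 to 12 kb and -0.46 for the 865 genes over 12 kb. Of that longest class, to which Gabrb1 belongs, 71.0% were called lower and 2.66% higher. Gabrb1 at -0.54 lay close to the median of its length class. With a smooth length trend removed from the hippocampus values, the log2 fold change of Gabrb1 was -0.16 ± 0.05 and no longer passed (adjusted p = 0.0587). The part of length in the fall of Gabrb1 was not tested further. Gabrb2 stood apart from its own class: it has 6360 exonic bases, and of the 5938 genes of 4 to 8 kb 46 (0.775%) were as low. With the trend removed Gabrb2 was at -1.83 ± 0.10 (adjusted p = 5.83e-05). Calls of a rise were more frequent in the classes of the other members than over all genes. In the class of 2 to 4 kb, with Gabra3, Gabra5 and Gabrd, 23.6% were called higher and 4.64% lower. In that of 4 to 8 kb, with Gabra2, Gabra4 and Gabrb2, these were 18.8% and 11.6%. With the trend removed, Gabra3 (0.26), Gabra4 (0.30) and Gabra5 (0.28) were still called. In the cortex without wild-type library 2, genes over 12 kb had a median of -0.18 and 51.2% were called lower. Gabrb1 there, at -0.60, was further down than the median of its class, and with the length trend removed from all 6 cortex libraries it was at -0.49 ± 0.05 (adjusted p = 0.00364).

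**Figure D3:**
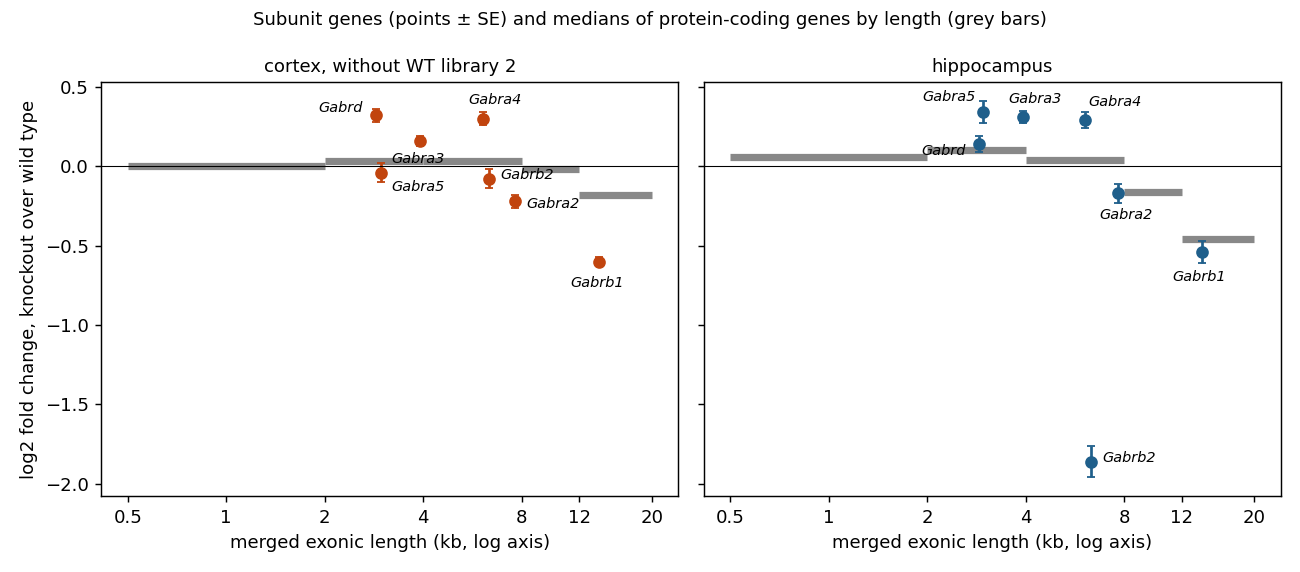
Log2 fold change in the knockout over the wild type (vertical axis) against merged exonic length (horizontal log axis, kb), with points ± SE for the 7 subunit genes and grey bars for medians of protein-coding genes by length class; the cortex (left) is without wild-type library 2. In the hippocampus (right) Gabrb1 at -0.54 lies near the -0.46 median of genes over 12 kb, and Gabrb2 at -1.86 lies far below the 0.04 of its class.

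Gabra5 encodes the alpha subunit typical of hippocampal receptors outside the synapse. Its hippocampal libraries had 16214.5, 17904 and 17369 normalized counts in the knockout, against 12422, 14649 and 13630.2 in the wild type. All knockout libraries lay above all wild-type libraries, with log2 fold change 0.34 ± 0.07 (SE) and an adjusted p of 0.00838 by limma. In the cortex there were 3226, 3439.8 and 3103 normalized counts in the knockout, against 3524, 3265 and 3189.8 in the wild type. These groups overlapped, and the log2 fold change was -0.03 ± 0.07 (adjusted p = 0.843). The difference between the tissues, 0.37 ± 0.10, was not called (adjusted p = 0.0641). Without cortex wild-type library 2 it was 0.38 ± 0.10 and passed (adjusted p = 0.0328), and without hippocampus wild-type library 2 it was 0.43 (adjusted p = 0.0361). It was called in 3 of 21 alternatives.

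Gabra3 encodes an alpha subunit found in cortical and brainstem synapses, and Gabra4 one that often pairs with the delta subunit. Gabra3 in the hippocampus had 3150.5, 3103 and 3144 normalized counts in the knockout, against 2528, 2490.5 and 2567 in the wild type. It had the tightest groups of the 7, with SDs of 25.8 in the knockout and 38.2 in the wild type, and a log2 fold change of 0.31 ± 0.04 (SE; adjusted p = 0.00108 by limma). In the cortex Gabra3 had 8791, 8848 and 8462 normalized counts in the knockout, against 7872, 7149 and 7747 in the wild type. The groups did not overlap, but the log2 fold change of 0.20 ± 0.06 did not pass (adjusted p = 0.158), and it passed without wild-type library 2 at 0.16 ± 0.03 (adjusted p = 0.00867).

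For Gabra4 the hippocampal libraries had 6969, 7379 and 7728 normalized counts in the knockout, against 5942, 6146 and 5989.8 in the wild type. The log2 fold change was 0.29 ± 0.05 (adjusted p = 0.00383 by limma), with no overlap of the groups. In the cortex Gabra4 had 6566, 7078 and 6754 normalized counts in the knockout, against 5704, 4854 and 5351 in the wild type. Its knockout libraries were again the higher ones, at 0.36 ± 0.07 on the log2 scale (adjusted p = 0.0644), and at 0.30 ± 0.04 without wild-type library 2 (adjusted p = 0.00189). Gabra3 and Gabra4 were called in the hippocampus in all 18 alternatives. Between the tissues the effect differed by 0.11 ± 0.07 for Gabra3 (adjusted p = 0.341) and -0.07 ± 0.09 for Gabra4 (adjusted p = 0.64). Neither passed, which does not show that the effects are equal.

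Gabra2, an alpha subunit gene with a known place at the start of the axon, and Gabrd, the delta subunit gene, did not pass in either tissue. Gabra2 had 5932, 5590.3 and 6149.9 normalized counts in knockout hippocampus, against 6233, 6954 and 6736 in wild-type hippocampus. The groups did not overlap, and the log2 fold change of -0.17 ± 0.06 just missed the threshold (adjusted p = 0.0522 by limma), with a call in 7 of 18 alternatives, among them the one without wild-type library 1 (-0.22, adjusted p = 0.0178). In the cortex it had 3244, 3036 and 3060.1 normalized counts in the knockout, against 3645, 3825 and 3615 in the wild type. There the log2 fold change was -0.25 ± 0.06 (adjusted p = 0.0985), and -0.22 ± 0.04 without wild-type library 2 (adjusted p = 0.00665).

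Gabrd had 2618, 2718 and 2565 normalized counts in knockout hippocampus, against 2423, 2482 and 2263 in wild-type hippocampus. The knockout libraries were higher by 0.14 ± 0.05 on the log2 scale (adjusted p = 0.0726 by limma), and passed only without wild-type library 2 among 18 alternatives (0.17, adjusted p = 0.041). In the cortex it had 5518, 5604 and 5731 normalized counts in the knockout, against 4674, 4775 and 4345 in the wild type. These groups did not overlap either. The log2 fold change was 0.29 ± 0.06 (adjusted p = 0.0655), and 0.32 ± 0.04 without wild-type library 2 (adjusted p = 0.000972).

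The 7 genes were set against each other by their level per kb of merged exon. A share of the summed level of the 7 genes within a library does not depend on the size factor, so it can be set side by side across the tables. In the hippocampus Gabra5 held 54.2% ± 1.15 in the knockout and 44.2% ± 0.61 in the wild type (SD, n = 3 each). In the cortex it held 12.7% ± 0.409 in the knockout and 14.3% ± 1.11 in the wild type. Gabra5 was thus the leading member in the hippocampus and a middling one in the cortex. By merged exons Gabra3 and Gabrd led the cortex, where Gabra3 held 25.7% in the knockout and 24.6% in the wild type. Gabrd held 22.6% in the knockout and 20.5% in the wild type, or 19.2%, 23.4% and 18.8% by wild-type library. The order of levels per kb in knockout cortex was Gabra3, Gabrd, Gabrb2, Gabra4, Gabra5, Gabrb1 and Gabra2, and Gabra4 and Gabra5 overlapped in range. In wild-type cortex Gabra5 came before Gabra4, and Gabrb2 and Gabra5 overlapped only through wild-type library 2. By library, Gabrb2 there was at 1432, 561 and 1366 normalized counts per kb, and Gabra5 at 1185, 1098 and 1073.

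In knockout hippocampus the order was Gabra5, Gabra4, Gabrd, Gabrb1, Gabra3, Gabra2 and Gabrb2, and only the neighbours Gabra3 and Gabra2 overlapped. In wild-type hippocampus it was Gabra5, Gabrb1, Gabrb2, Gabra4, Gabra2, Gabrd and Gabra3, with overlap of Gabrb1 with Gabrb2 and of Gabra2 with Gabrd. Gabrb2 therefore stood last in the knockout, at 327 ± 26.1 normalized counts per kb, and in the 3rd place in the wild type, at 1192 ± 161. Its share was 3.08% ± 0.3 in knockout hippocampus and 11.5% ± 0.772 in wild-type hippocampus. In the cortex Gabrb2 held 15.4% ± 0.899 in the knockout, against 16.9%, 7.92% and 17.0% in the 3 wild-type libraries. Gabrb1 held 7.97%, 7.88% and 8.1% in the knockout hippocampus libraries, against 11.7%, 12.1% and 12.2% in the wild-type ones. The order rests on the length used: with the longest transcript of each gene, 3 or 4 of the 7 changed place in each group. Gabrb2 then came before Gabrd in knockout and wild-type cortex. By wild-type cortex library Gabrb2 then held 22.2%, 10.8% and 22.2%, against 20.9%, 23.4% and 21.6% for Gabra3.

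**Figure D4:**
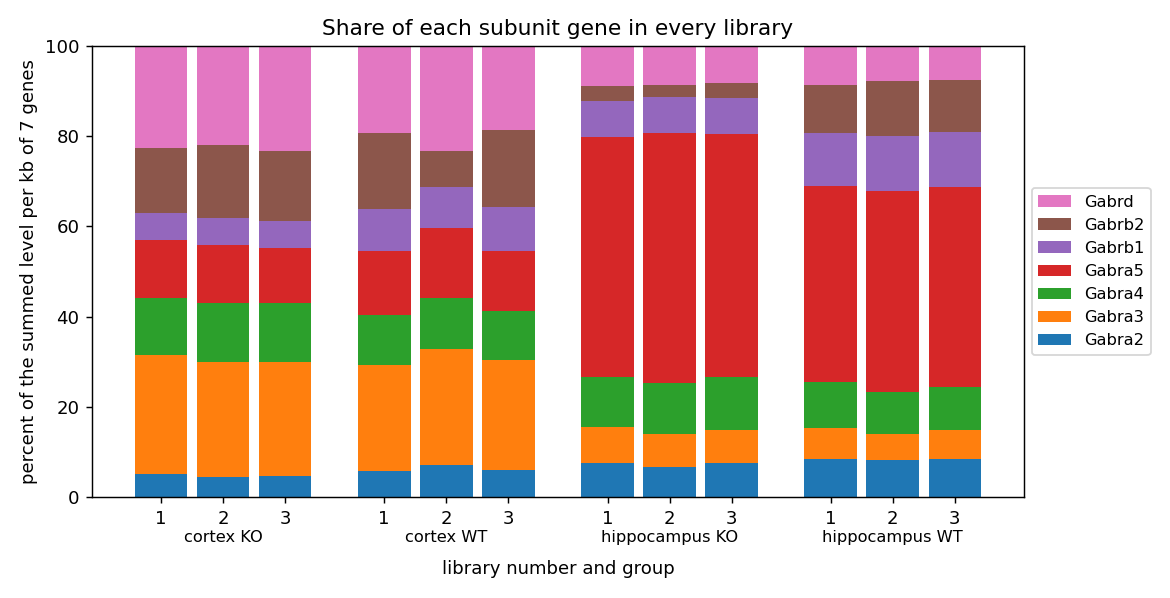
Share of each subunit gene in the summed normalized counts per kb of the 7 genes (vertical axis, percent), for each library by group. Gabra5 takes 54.2% in knockout and 44.2% in wild-type hippocampus on average, and the Gabrb2 band is thin in knockout hippocampus and in cortex wild-type library 2.

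On chromosome 5, where Gabra2, Gabra4 and Gabrb1 lie close together, Gabra4 rose and Gabrb1 fell in the hippocampus. Gabrg1, a gamma subunit gene on the same chromosome, rose there too, at 0.34 on the log2 scale (adjusted p = 0.00638 by limma). On chromosome 7 Gabra5 rose in the hippocampus, and the gamma subunit gene Gabrg3 fell by 0.48 on the log2 scale (adjusted p = 0.00154). Calls of both signs thus occurred among subunit genes of 1 chromosome.

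Among the members, Gabra3 and Gabra4 had the most similar pattern over the 12 libraries, with a root mean square log2 difference of 0.075 after each gene was centred within its tissue. Gabrd lay 0.0987 from Gabra3 and 0.0999 from Gabra4. Gabrb2 was 0.617 to 0.85 away from every other member. Among 14888 named protein-coding genes, the closest to Gabrb2 were Lonrf3, at a difference of 0.125, and Syn3, which encodes a synapsin of nerve terminals, at 0.131, where Gabrb2 itself varied by 0.745 about its mean. Lonrf3 had a log2 fold change of -1.74 in the hippocampus (adjusted p = 4.52e-05 by limma) and 0.36 in the cortex, and Syn3 -2.04 (adjusted p = 1.75e-05) and 0.17. Like Gabrb2, each was lowest in the cortex in wild-type library 2: Lonrf3 had 393, 155 and 404 normalized counts in the wild-type cortex libraries, and Syn3 1307, 517 and 1146. Lonrf3 and Syn3 were chosen by likeness over these same libraries, so these low values and their fold changes follow from the choice. Closest to Gabrb1 were Helz (0.0615) and Zfp369 (0.0695), to Gabra4 Tlk1 (0.0318) and Pptc7 (0.0421), and to Gabra3 Fgf12 (0.0342) and Slc6a9 (0.035). Closest to Gabra5 were Rragb (0.05) and Cpne4 (0.0516), to Gabra2 Nfib (0.0443) and Klhl32 (0.0513), and to Gabrd Tmem65 (0.0486) and Sept5 (0.0496). These distances are descriptions over libraries that share their groups.

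**Figure D5:**
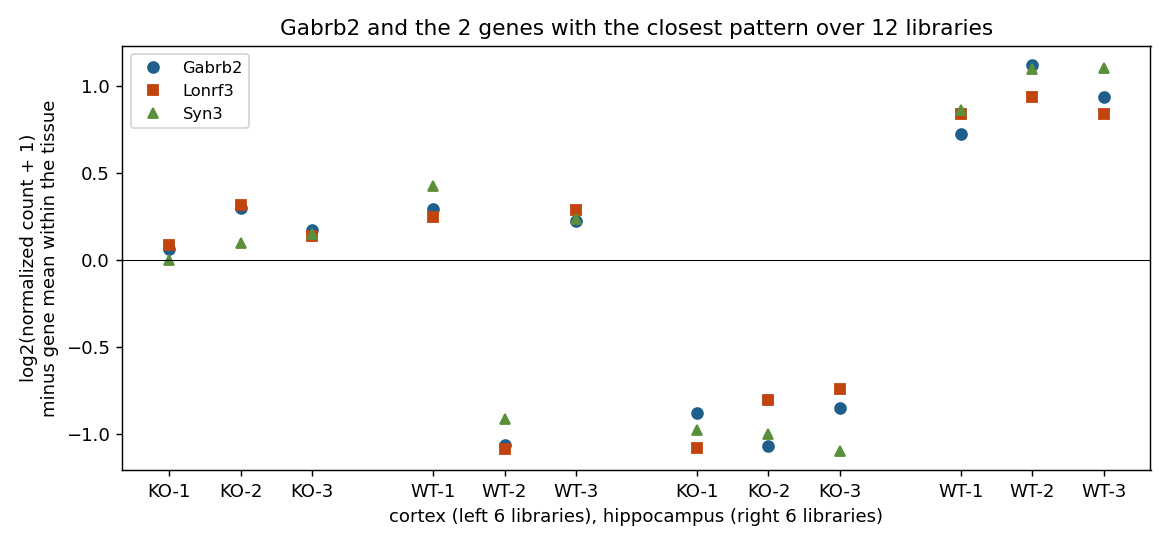
Log2(normalized count + 1) minus the gene's mean within the tissue (vertical axis) in each of 12 libraries for Gabrb2, Lonrf3 and Syn3. All 3 genes are low in cortex wild-type library 2 and in every knockout hippocampus library. Lonrf3 and Syn3 were chosen for their likeness to Gabrb2 over these libraries.

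The remaining genes of GABA signalling were read from lists, beside medians over all genes of 0.02 in the hippocampus and -0.01 in the cortex. Over all genes 14.1% were called higher and 15.1% lower in the hippocampus, 1.28% and 0.661% in the cortex, and 11.0% and 10.4% in the cortex without wild-type library 2. Of 12 other GABA-A and GABA-rho subunit genes, 9 were tested in the hippocampus, where 3 rose, Gabrg1 among them, and 1 fell, Gabrg3, with a median log2 fold change of 0.34. In the cortex 0 of 8 tested were called, and 4 without wild-type library 2. Of 22 genes for anchoring, assembly and trafficking of the receptor, 9 rose and 2 fell in the hippocampus, with a median of 0.13, and 0 were called in the cortex, or 15 without wild-type library 2. Nlgn2, an adhesion protein of inhibitory synapses, was at 0.28 in the hippocampus (adjusted p = 0.00394 by limma) and Arfgef2, a trafficking factor, at -0.73 (adjusted p = 4.84e-05 by limma).

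Of 9 genes for GABA synthesis, loading, uptake and breakdown, 6 rose and 0 fell in the hippocampus, and 2 rose and 1 fell in the cortex. The cortex count of 3 calls was 8 without wild-type library 2 and 0 or 1 without any 1 of the other 5 libraries. Gad1, which makes GABA, was at 0.42 in the hippocampus (adjusted p = 0.00172 by limma) and at 0.36 in the cortex (adjusted p = 0.029). Slc32a1, the vesicular GABA transporter gene, was at 0.46 in the hippocampus (adjusted p = 0.00211) and 0.34 in the cortex (adjusted p = 0.0424). The gene that fell in the cortex was Slc6a13, a GABA transporter, at -1.27 (adjusted p = 0.038). Beside these, the summed level of 7 inhibitory neuron markers, which include Gad1 and Slc32a1, ran from 55282 to 57223 in knockout hippocampus and from 40567 to 48173 in wild-type hippocampus. In the cortex it ran from 69064 to 69744 in the knockout and from 57945 to 62251 in the wild type. Of the 7 markers, 4 were called higher in the hippocampus and 2 in the cortex, against 14.1% and 1.28% of all tested genes. In either tissue 0 were called lower. A higher sum was not particular to inhibitory neurons. Sums of excitatory neuron markers ran from 725229 to 768351 in knockout hippocampus, against 597104 to 706107 in the wild type. Those of astrocytes (105761 to 110462 against 85511 to 96400) and oligodendrocytes (407971 to 473808 against 375193 to 380340) were higher there too. In the cortex excitatory neuron and oligodendrocyte sums were also above every wild-type library, and astrocyte sums overlapped. Markers of interneuron classes did not all follow the sum of inhibitory neuron markers in either tissue. In the hippocampus Sst was higher in every knockout library, but the groups overlapped for Pvalb and Vip. Pvalb had 1687, 1579 and 1727 normalized counts in knockout hippocampus, against 1583, 1654 and 1623 in the wild type. For Vip these were 680, 566 and 681, against 592, 712 and 588. In the cortex the groups overlapped for Pvalb as well. Vip had 2205, 1811 and 2121 normalized counts in knockout cortex, against 2615, 3419 and 2589 in wild-type cortex. Sst had 10338, 10302 and 10696 in knockout cortex, against 9336, 14487 and 9816 in wild-type cortex. The mean of Sst was higher in the wild type (11213 against 10445) only through wild-type library 2. The other wild-type libraries lay below every knockout library. The part of these markers in the subunit results was not tested.

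Of 8 chloride transport genes, which set the ion gradient the receptors work on, 1 rose and 4 fell in the hippocampus, with a median of -0.29. In the cortex 0 were called, or 4 without wild-type library 2. The kinase gene Wnk1 was at -0.81 (adjusted p = 4.52e-05 by limma) and the related kinase gene Wnk3 at -1.03 (adjusted p = 0.000515). Of 5 GABA-B receptor genes, Kctd16, an auxiliary subunit, fell in both tissues, at -0.89 in the hippocampus (adjusted p = 0.000198) and -0.64 in the cortex (adjusted p = 0.0268), where 0 of the 5 were called without any 1 library other than wild-type library 2. Kctd8 rose in the hippocampus, at 0.59 (adjusted p = 0.0149).

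Some markers of neighbouring regions and other cells differed between the genotypes and others did not. The summed level of 8 striatal neuron markers ran from 30617 to 48839 in knockout cortex and from 12355 to 13545 in wild-type cortex, 7 of the 8 were called higher, and 0 of the 8 were at 0 in any group. In the hippocampus, 2 of those 8 were called higher and 1 lower. Over all tested genes 14.1% were called higher and 15.1% lower in the hippocampus, and 1.28% and 0.661% in the cortex. The cortex calls of these markers are from the fit that includes wild-type library 2. The summed level of 5 choroid plexus markers ran from 8836 to 17835 in knockout hippocampus and from 12278 to 345630 in wild-type hippocampus, and 0 of the 5 were called. The groups overlapped, and the widest spread was among the wild-type libraries. All 5 microglia markers rose in the hippocampus, with sums of 23965 to 25136 in the knockout and 16101 to 19216 in the wild type. Of the 8 hippocampal field and dentate markers, 1 rose and 3 fell in the hippocampus. The part of these markers in the subunit results was not tested.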

How the data were processed

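Total RNA of mouse cortex and hippocampus was sequenced in 12 libraries. The authors deposited 1 table per tissue, and its values are a signal: read counts per gene that were normalized to a size factor per library, as the table names and whole steps show. Per the submitters' processing notes, the tools were STAR, HTSeq and DESeq2 and the build GRCm38, with no versions. The counting of reads over overlapping genes is not described there. Columns of other samples numbered 0. Identifiers were matched to the annotation of that build (55227 of 55487 rows matched), which gave symbols and exon lengths.

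Genotypes were compared with limma 3.58.1 (R 4.3.3) and its trended prior variance. Values entered as log2(normalized count + 1), and genes whose mean fell below 10 were left out. Folds on this scale understate the change of low genes. Adjustment was Benjamini-Hochberg over 21945 cortex, 22337 hippocampus and 21282 genes for the tissue difference, in which libraries were taken as independent. Scripts were tested on simulated data. Alternatives were other pseudocounts, filters, scalings and variance models, removal of a lowess length trend, a replicate block, each library left out in turn and, in the hippocampus, edgeR 4.0.16 and DESeq2 1.42.0 on whole reads recovered from the deposited values.

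The members and gene lists were chosen with earlier results of these data known. All 7 members are named in full. Of each list of GABA signalling genes at most 3 genes per tissue with the smallest p are named. Interneuron class markers were named without regard to p. The nearest genes are the 2 protein-coding genes with the smallest root mean square difference from a member. Some genes of the lists are not reported here by name.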

Additional observations from a re-analysis of the deposited data

Results flagged for a closer look

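The knockout effect on Gabrb2 differed between the tissues. The hippocampus effect minus the cortex effect was -2.22 on the log2 scale (adjusted p = 0.015, limma interaction term), with all 3 knockout hippocampus libraries below all wild-type ones and overlapping groups in the cortex. The difference was called in 20 of 21 alternatives. Groups of 3 libraries are too small for a test of single outlying libraries.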

How the results depend on the processing

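In the hippocampus 3 members were called higher, or 4 without wild-type library 2, and 2 lower, with 1 when the length trend was removed and 3 in the 7 of 18 alternatives that called Gabra2. In the cortex 1 member was called lower, against 0 with no filter on low values, with a constant prior variance and with the replicate block, and 0 to 2 with 1 library left out. The number higher in the cortex was 0, against 2 with the length trend removed and 0 to 3 with 1 library left out. Over all genes the cortex gave 426 calls, against 233 with no filter, 86 with a constant prior variance, 1285 with the length trend removed, 45 with the replicate block and 15 to 4693 with 1 library left out, the highest without wild-type library 2. The hippocampus gave 6513, and 3656 to 7833 with 1 library left out. For the tissue difference 0 members were called higher, against 1 with quantile normalization, 1 with the length trend removed, 1 with the replicate block and length trend removed, and 0 to 1 with 1 library left out. With the replicate block alone 0 were called lower, against 1, and the adjusted p of Gabrb2 was 0.061. Within a tissue, deviations from the group mean correlated at -0.0649 to 0.0915 between same-numbered knockout and wild-type libraries. Between differently numbered ones they correlated at -0.0983 to 0.1212. These values cannot decide whether the numbers pair the samples, since a pairing need not show in them.

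Directions turned for values near 0, and also for Gabrb2 in the cortex, which was at 0.36 with all libraries. With 1 library left out, Gabra5 in the cortex ran from -0.07 to 0.01, passing 0.00, and Gabrb2 from -0.08 without wild-type library 2 to 0.60. The tissue difference of Gabra4 was 0.00 with the length trend removed, with and without the block. That of Gabrb1 was 0.01 with quantile normalization, 0.34 with the length trend removed (adjusted p = 0.026, and 0.0447 with the block), and -0.09 to 0.07 with 1 library left out. The cause was not tested. In the order per kb, members out of place with the longest transcript numbered 4 in knockout cortex, 4 in wild-type cortex, 4 in knockout hippocampus and 3 in wild-type hippocampus, and with no length correction 4, 6, 4 and 6. Read-based tests were not run in the cortex or for the tissue difference. The value of 1 read could not be checked for cortex wild-type libraries 1 and 2, so their recovered reads are estimates.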

Other observations

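Of 574 genes with a hippocampal log2 fold change as low as that of Gabrb2 or lower, 446 were tested in the cortex too. Of these, 263 (59.0%) had cortex wild-type library 2 at most at 0.5 of both other wild-type libraries, against 850 of 21282 (3.99%) of all genes tested in both tissues. In 296 (66.4%) the mean of knockout cortex was at most 0.5 of the mean of wild-type libraries 1 and 3, against 718 (3.37%) of all. Gabrb2 belongs to the first set, with 3571 normalized counts in library 2, and not to the second, with a knockout mean of 8442 in the cortex. These sets were chosen after the values were seen, and no test was made.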
